A study of Homo sapiens with 4 samples.

Results

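The genes described here are 10 genes of pericellular proteolysis, chosen by name: the matrix metalloproteinases MMP1, MMP2, MMP3, MMP9, MMP10 and MMP14, their inhibitors TIMP1, TIMP2 and TIMP3, and the plasminogen activator PLAU. Earlier results of these data were known at that choice, so the shares over all genes printed below are descriptions and not tests. All 10 have a probe set with exactly 1 gene symbol, out of 18417 genes measured that way, and 8 passed a filter on dim genes (a mean log2 intensity at or above 6.78, the 25th percentile), which kept 13813 genes. The study lowered ZFX, an X-linked zinc finger regulator of transcription, in DAOY, an established human medulloblastoma cell line. Of its 4 arrays, 3 came from cells given lentivirus with an anti-ZFX short hairpin RNA, named H2, H3 or H4 (genotype ZFX KD, 1 array each), and 1 from cells given a scrambled hairpin with no target (SCR, genotype Ctrl). All 4 went through the same handling: virus for 16 to 24 hours, 48 hours of recovery, then 2 ug/mL puromycin for about 48 hours, so the scrambled cells carried virus and selection too. The labels name no clone and do not say that a transduction was repeated.

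Matrix metalloproteinases are zinc-dependent enzymes that are made as inactive precursors and cut collagens, laminins, fibronectin and other proteins around the cell. TIMP proteins bind their active site and block them. MMP14 sits in the plasma membrane, where together with TIMP2 it captures the precursor of MMP2 and activates it. PLAU, urokinase, is a serine protease that turns plasminogen into plasmin, which in turn opens several metalloproteinase precursors. In tumours of the brain, as in other tissues, this machinery is known for its part in invasion.

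ZFX read 744.9, 749.6 and 995.6 with H2, H3 and H4, against 1430 on the scrambled array, or 52.1%, 52.4% and 69.6% of it. H2 stood furthest from the scrambled array over all probe sets (r = 0.9921 across probe sets, against 0.9962 for H3 and 0.9951 for H4). Values are therefore given for each hairpin and, for many genes and lists, also without H2. Of 12 markers of the cerebellar granule lineage and medulloblastoma, 11 were measured and 9 lay above the filter, among them ZIC1, ZIC2, OTX2 and PTCH1, while GLI1 and NES lay under it. The summed intensity of the 11 was 4774, 5303 and 5455 with H2, H3 and H4, against 5444 on the scrambled array.

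Promoter sequences were found for 5 of the 10 genes (RefSeq, build GRCh38.p14): MMP10, MMP14, TIMP1, TIMP3 and PLAU. The 250 bases before the gene start are shown, 5′ to 3′ on the gene's strand, for these 5 and for MMP7. MMP7 lies in the same gene cluster as MMP10, described further on, but not next to it. The choice of the 5 rests on which genes had a window and not on their values. MMP7 was added by name, with earlier results of these data known. By the probe sets used, PLAU, MMP7, MMP14 and TIMP3 were lower with every hairpin. MMP7, MMP14 and TIMP3 were lowest with H2, and PLAU with H4. TIMP1 was slightly higher with every hairpin, and MMP10 lay under the filter. Capitals mark matches, on either strand, to 4 motifs that were searched. The first was TGANTCA, the sequence that AP-1 factors bind as pairs of FOS and JUN proteins. The next was AGGCCT, the core of the sequence known to be recognised by ZFX itself. The other motifs are common parts of promoters: the TATA box, searched as TATAAA, which helps place the start of transcription, and the GC box, searched as GGGCGG, which SP1 and its relatives bind.
PLAU, chr10:73910882-73911131 (plus strand): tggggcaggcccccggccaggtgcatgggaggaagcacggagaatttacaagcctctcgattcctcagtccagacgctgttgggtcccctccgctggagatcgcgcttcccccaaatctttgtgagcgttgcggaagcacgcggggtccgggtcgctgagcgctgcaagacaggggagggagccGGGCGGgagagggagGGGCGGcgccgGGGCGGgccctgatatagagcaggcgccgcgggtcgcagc
MMP14, chr14:22836335-22836584 (plus strand): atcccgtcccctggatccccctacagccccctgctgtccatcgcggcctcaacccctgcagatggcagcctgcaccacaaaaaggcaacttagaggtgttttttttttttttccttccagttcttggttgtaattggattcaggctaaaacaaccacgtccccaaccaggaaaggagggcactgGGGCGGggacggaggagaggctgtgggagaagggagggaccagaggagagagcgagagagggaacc
TIMP3, chr22:32801455-32801704 (plus strand): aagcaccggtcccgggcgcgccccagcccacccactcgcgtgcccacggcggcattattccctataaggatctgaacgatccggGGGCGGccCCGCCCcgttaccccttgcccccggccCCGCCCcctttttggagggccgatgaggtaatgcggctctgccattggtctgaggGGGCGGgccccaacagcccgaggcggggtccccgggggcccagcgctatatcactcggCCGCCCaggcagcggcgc
TIMP1, chrX:47582186-47582435 (plus strand): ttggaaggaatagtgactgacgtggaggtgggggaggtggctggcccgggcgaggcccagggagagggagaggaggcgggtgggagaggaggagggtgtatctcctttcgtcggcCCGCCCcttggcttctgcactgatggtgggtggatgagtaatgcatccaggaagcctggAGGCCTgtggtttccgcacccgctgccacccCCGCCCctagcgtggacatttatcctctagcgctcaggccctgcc
MMP7, chr11:102530748-102530997 (minus strand): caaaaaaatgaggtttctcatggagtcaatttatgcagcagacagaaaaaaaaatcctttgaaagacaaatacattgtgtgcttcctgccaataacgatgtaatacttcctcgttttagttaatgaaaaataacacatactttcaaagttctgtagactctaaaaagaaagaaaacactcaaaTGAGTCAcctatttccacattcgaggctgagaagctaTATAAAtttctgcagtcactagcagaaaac
MMP10, chr11:102780629-102780878 (minus strand): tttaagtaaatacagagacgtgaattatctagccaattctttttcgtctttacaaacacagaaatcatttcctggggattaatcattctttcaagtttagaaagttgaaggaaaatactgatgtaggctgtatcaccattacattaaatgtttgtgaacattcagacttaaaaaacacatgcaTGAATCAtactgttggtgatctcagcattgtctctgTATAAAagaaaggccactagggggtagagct

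MMP7 and MMP10 have the same layout, with an AP-1 motif that begins 67 bases before the start in both and a TATA box that begins 30 and 31 bases before it. Their GC content is 33.6% and 34.4%, against a median of 58.0% over all windows, and neither holds a GC box. By contrast the PLAU, MMP14, TIMP3 and TIMP1 windows hold 3, 1, 5 and 2 GC boxes and no AP-1 or TATA match. TIMP1 alone among the 6 windows holds AGGCCT, beginning 76 bases before the start. A second, upstream PLAU window in the table (chr10:73910360-73910609) holds none of the 4 motifs. Over 35116 promoter windows of the same length, 6.57% hold the AP-1 motif, 9.2% AGGCCT, 10.7% TATAAA and 42.6% a GC box. No marked match overlaps another, and a match is a description of letters only.

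**Figure D1:**
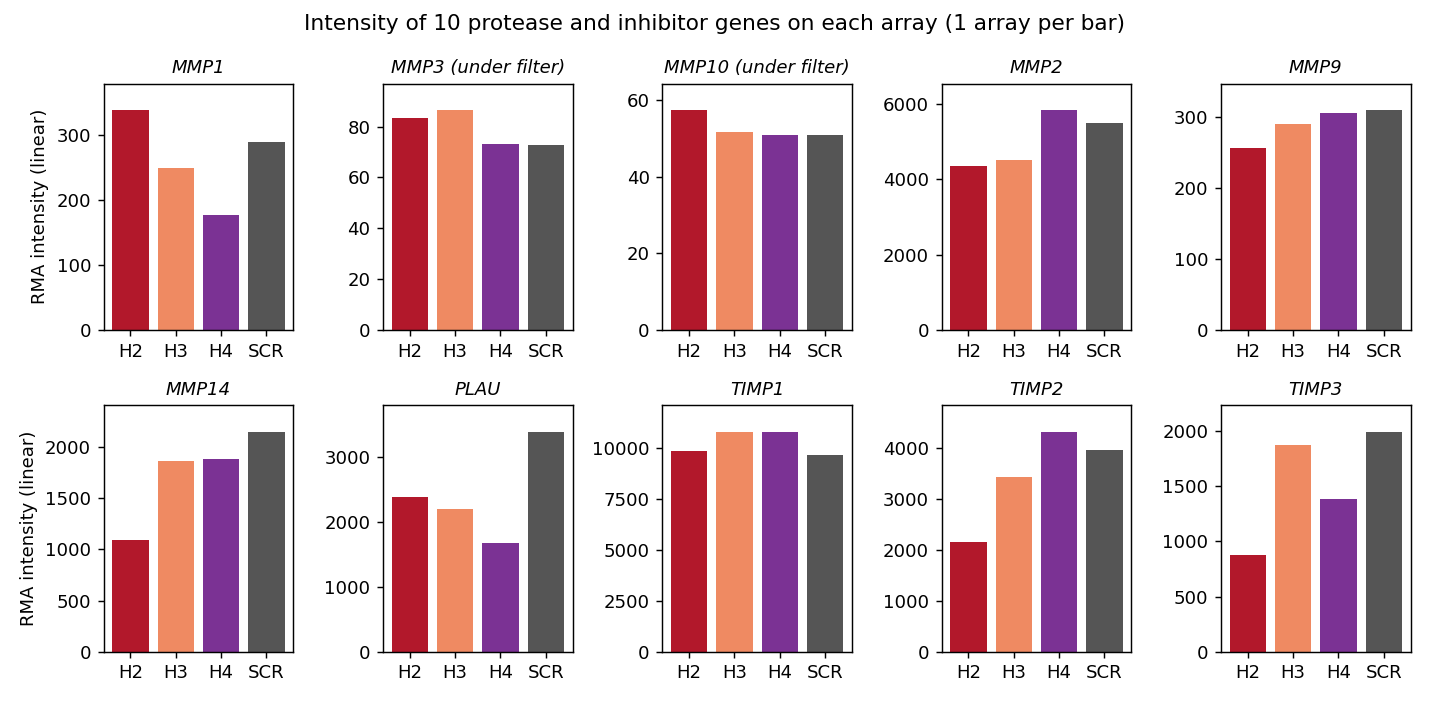
Intensity of the 10 genes on each array, on a linear scale that starts at 0, with 1 array per bar (H2, H3 and H4 are ZFX knockdown, SCR is scrambled) and a separate axis for each gene. PLAU is lower on all 3 knockdown arrays than on SCR, and MMP14, TIMP2 and TIMP3 are lowest with H2.

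PLAU had the largest mean difference of the 10 genes. Its probe set read 2373, 2197 and 1680 with H2, H3 and H4, against 3384 on the scrambled array. All 3 knockdown arrays were thus below the scrambled one, at 70.1%, 64.9% and 49.6% of it. On the log2 scale the difference averaged -0.72 ± 0.26 (SD over 3 hairpins, n = 3), or 60.9% of the scrambled level. Only 0.724% of the genes kept had a lower mean difference. In limma's moderated test across all genes the unadjusted p was 0.0207 (SE 0.22) and the adjusted p 0.9998. An exact permutation test over the 4 arrays gave p = 0.25 (two-sided), the lowest value that 4 arrays allow. In bulk cultures, fewer cells with a transcript and less of it per cell cannot be told apart.

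None of the 10 genes passed the test. In limma 0 of the 13813 genes kept, or 0%, had an adjusted p under 0.05, and 446, or 3.23%, had an unadjusted p under 0.05. PLAU was the 1 gene of the 8 kept here among those 446. The fit takes the 3 hairpins as replicates and assumes that the lone scrambled array varies as they do. Its p-values thus rest on spread between hairpins, that of each gene moderated towards the intensity trend over all genes kept. No spread of scrambled arrays enters them.

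Markers of other cell types also differed between the arrays. Of 8 leukocyte markers 7 were measured, with PTPRC, ITGAM and CD3E under the filter, and their summed intensity was 1163 to 1864 on the knockdown arrays and 2487 on the scrambled array. On the scrambled array LCP1 read 1140 and LAPTM5 819.7 of that sum. Of the 4 above the filter, 2 were lower (LCP1 and CSF1R) and 0 higher with every hairpin, beside 30.6% and 16.9% of all genes. LAPTM5 was at 33.1%, 77.2% and 105.0% with H2, H3 and H4, and CD14 at 102.3%, 98.1% and 101.0%. CD3E, under the filter, read higher with every hairpin. All 6 endothelial markers were measured, with PECAM1, CDH5, VWF and KDR under the filter, and summed to 962 to 1461 on the knockdown arrays and 2057 on the scrambled array. The 2 above the filter, TEK and TIE1, were lower with every hairpin, beside 30.6% of all genes. TEK was at 47.4%, 81.5% and 83.8% with H2, H3 and H4. The 6 fibroblast markers summed to 3225 to 4374 on the knockdown arrays and 4514 on the scrambled array, with DCN under the filter and the other 5 above it. The 6 epithelial markers summed to 8917 to 9717 on the knockdown arrays and 11535 on the scrambled array. EPCAM and CDH1 lay under the filter, and the other 4 were lower with every hairpin, beside 30.6% of all genes. Of the sum on the scrambled array, KRT18 made up 6624 and KRT8 4340. At least 1.5-fold lower with every hairpin were LCP1, an actin-bundling protein of leukocytes, TIE1, an endothelial receptor, and FAP, a serine protease of activated fibroblasts, the last at 48.3%, 39.8% and 66.0% with H2, H3 and H4. Of the 5 fibroblast markers above the filter, FAP was the 1 lower and PDGFRA, a growth factor receptor, the 1 higher with every hairpin, at 142.8%, 104.3% and 114.9%. PDGFRB, THY1 and LUM lay on either side, between 48.6% and 145.5%. The part of these cell type markers in the protease values was not tested.

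MMP14, the membrane-bound collagenase and activator of MMP2, differed mainly on 1 array. It read 1089 with H2, 1867 with H3 and 1890 with H4, against 2152 on the scrambled array. H2 was at 50.6% of the scrambled level, while H3 and H4 were at 86.8% and 87.8%. The mean log2 difference was -0.46 ± 0.45 (SD, n = 3) with all hairpins and -0.20 without H2 (adjusted p = 0.9998 with all hairpins, limma).

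TIMP2, which both inhibits metalloproteinases and bridges the MMP2 precursor to MMP14, read 2144, 3418 and 4313 with H2, H3 and H4, against 3962 with the scrambled hairpin. H2 was again lowest, at 54.1%, H3 was at 86.3%, and H4 lay above the scrambled array at 108.9%. The mean log2 difference of -0.33 ± 0.51 (SD, n = 3) shrank to -0.045 without H2. MMP2 itself, a gelatinase that cuts basement membrane collagen, read 4352, 4503 and 5843, against 5506. It stood at 79.0% and 81.8% with H2 and H3 and at 106.1% with H4. The difference averaged -0.18 ± 0.23 on the log2 scale (SD, n = 3), and was -0.10 without H2 and -0.31 without H4. With H2 and with H3 all 3 parts of the MMP14, TIMP2 and MMP2 system were therefore below the scrambled array, and with H4 only MMP14 was.

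TIMP3 is the inhibitor that stays bound to the extracellular matrix and also blocks some ADAM and ADAMTS proteases. Its probe set read 878.3, 1875 and 1389 with H2, H3 and H4, against 1994 on the scrambled array. It was at 44.0% with H2, 69.6% with H4 and 94.0% with H3, so H3 was close to the scrambled array. The mean log2 difference was -0.60 ± 0.55 (SD, n = 3), and -0.31 without H2. A second probe set of TIMP3 read 212.5, 471.4 and 309.9, against 424.4. It gave 50.1% with H2 and 73.0% with H4, but 111.1% with H3, so the 2 probe sets disagree on the side of H3.

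TIMP1, a secreted inhibitor of most metalloproteinases, was the 1 kept gene of the 10 that lay above the scrambled array with every hairpin. It read 9833, 10790 and 10758 with H2, H3 and H4, against 9660. These are 101.8%, 111.7% and 111.4% of the scrambled level. The log2 differences averaged 0.11 ± 0.076 (SD, n = 3), and 0.16 without H2. TIMP1 with H2 lay within 2% of the scrambled array, and with a further quantile or a cyclic loess normalization it no longer lay above it with every hairpin. The 3 inhibitors thus differed from one another, TIMP3 and TIMP2 being lowest with H2 where TIMP1 was near the scrambled level.

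MMP1, the interstitial collagenase, spread widely between hairpins. It read 338.1, 248.8 and 177.0 with H2, H3 and H4, against 289.0 on the scrambled array. H2 was above the scrambled array at 117.0%, and H3 and H4 were below it at 86.1% and 61.2%. The highest knockdown array was 1.91-fold above the lowest. The mean log2 difference of -0.23 ± 0.47 (SD, n = 3) became 0.0051 without H4 and -0.46 without H2, so its sign rests on H4.

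MMP9, a gelatinase best known from leukocytes, read 255.6, 289.4 and 305.3, against 309.6, or 82.5%, 93.5% and 98.6% of the scrambled level. Its mean log2 difference was -0.13 ± 0.13 (SD, n = 3), and -0.059 without H2. The stromelysins MMP3 and MMP10, close relatives that cut proteoglycans and open other metalloproteinase precursors, lay under the filter on average. MMP3 read 83.4, 86.5 and 73.3, against 72.7, and MMP10 read 57.5, 51.9 and 51.0, against 50.9. All 6 knockdown values lie above the scrambled ones, but at these intensities no difference is read from them.

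**Figure D2:**
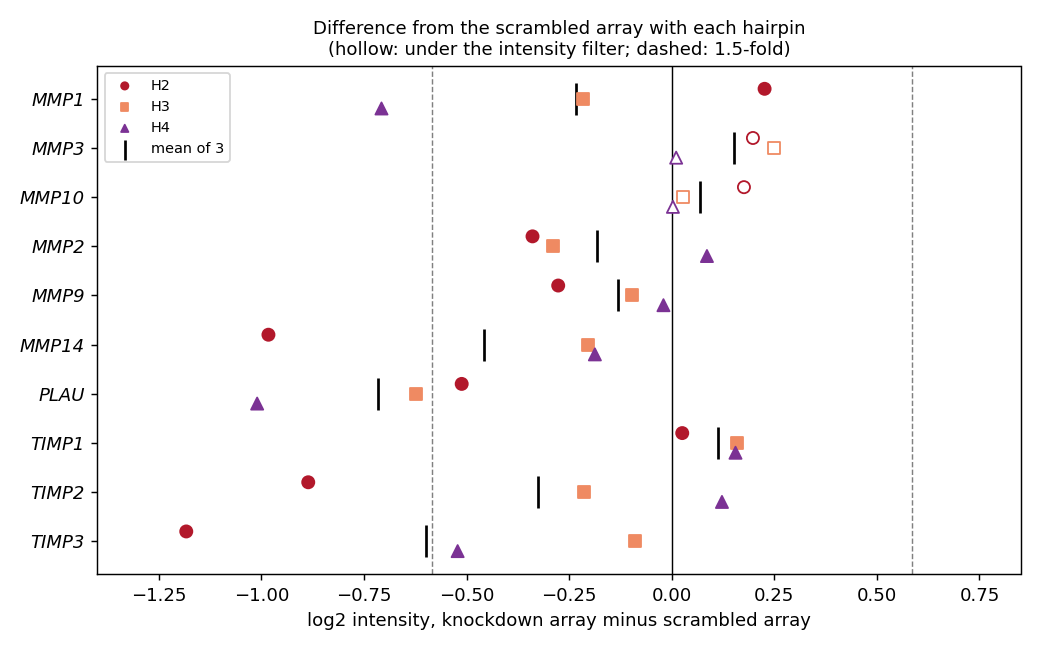
Log2 intensity of each knockdown array minus the scrambled array for the 10 genes, with 1 symbol per hairpin, a bar for the mean of the 3 hairpins, and dashed lines at 1.5-fold. PLAU lies left of 0 with all 3 hairpins, between -1.01 and -0.51, whereas MMP14, TIMP2 and TIMP3 reach -0.98, -0.89 and -1.18 with H2.

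Hairpin by hairpin, with 1 array a side and no test, 3 of the 8 kept genes were at least 1.5-fold lower with H2 (MMP14, TIMP2 and TIMP3), beside 5.61% of all genes kept. With H3 it was 1 of 8 (PLAU), beside 1.14%, and with H4 2 of 8 (PLAU and MMP1), beside 2.17%. No kept gene of the 10 was at least 1.5-fold higher with any hairpin, where 0.992%, 0.528% and 0.608% of all genes were so with H2, H3 and H4. Not 1 of the 8 was at least 1.5-fold lower, or higher, with every hairpin, beside 0.311% and 0.0507% of all genes. Without H2, PLAU was at least 1.5-fold lower with both remaining hairpins.

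By side alone, 4 of 8 were lower with every hairpin (PLAU, MMP14, TIMP3 and MMP9), beside 30.6% of all genes, and 1 was higher (TIMP1), beside 16.9%. The 3 hairpins share the 1 scrambled array, and the shares over all genes moved to 23.3% lower and 23.6% higher once each array was centred on its median. After that centring, and after a further quantile or cyclic loess normalization, 3 of the 8 were lower with every hairpin, MMP9 with H4 then lying above the scrambled array. With the mean of all probe sets of a gene it was also 3 of 8, TIMP3 being the gene that dropped out. The median of the 8 mean log2 differences was -0.28, beside -0.035 over all genes kept, and it was -0.15 without H2 and -0.43 without H4. Hairpin H2 gave the 8 genes a median of -0.43, H3 gave -0.21 and H4 gave -0.10, beside -0.03, -0.021 and -0.046 over all genes.

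**Figure D3:**
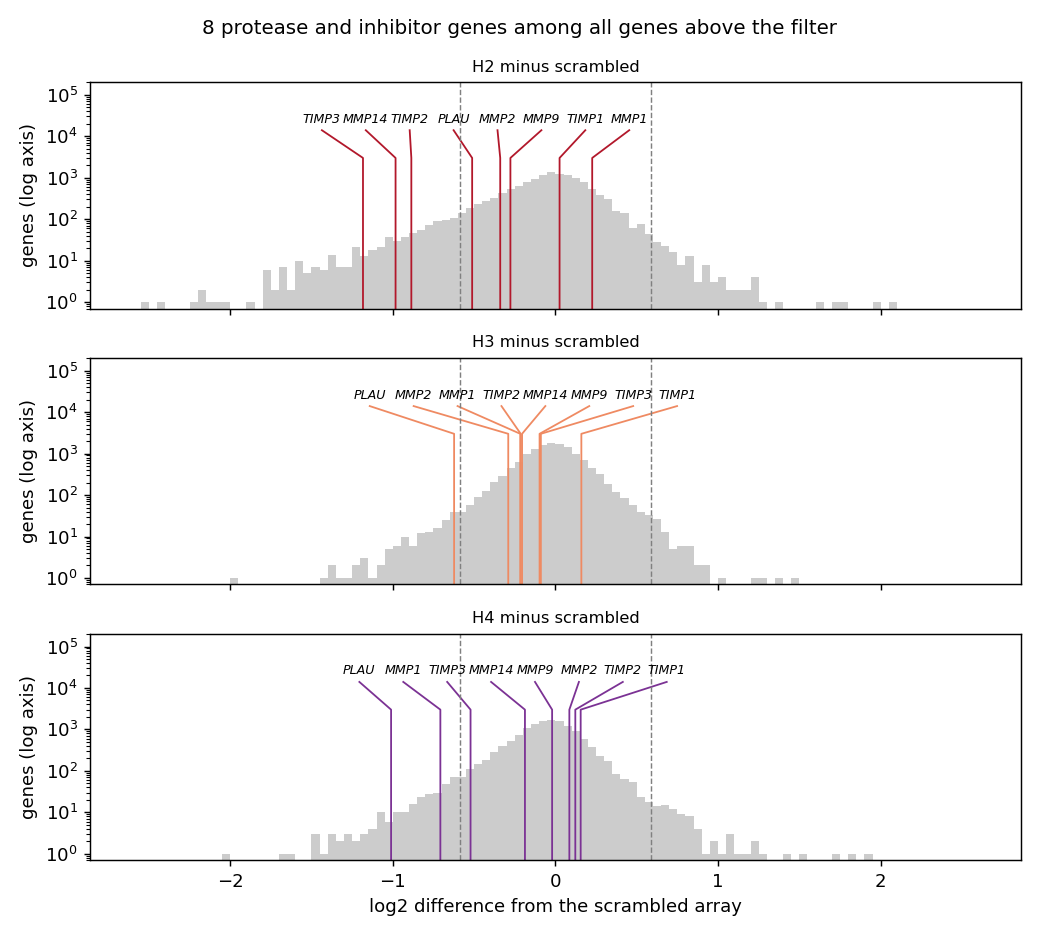
Histograms of the log2 difference of all 13813 genes kept, for H2, H3 and H4 against the scrambled array, with a logarithmic count axis and lines for the 8 protease and inhibitor genes above the filter. H2 has the wider lower tail, with 775 genes at least 1.5-fold lower against 157 for H3 and 300 for H4, and holds TIMP3, MMP14 and TIMP2 in it.

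The genes whose 3 hairpin differences lay nearest to those of PLAU, by Euclidean distance over 13812 other genes, were SLC46A3 (distance 0.209), STX3 (0.231), CYFIP2 (0.268), TMEM171 (0.274) and JUP (0.29). JUP, the junction protein plakoglobin, was at 58.3%, 63.6% and 53.6% of the scrambled level with H2, H3 and H4. STX3, a membrane fusion protein, was at 66.9%, 75.4% and 48.0%. These distances rest on 4 arrays and share the scrambled one, so they describe likeness only.

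MMP1, MMP3 and MMP10 lie side by side in a run of 9 metalloproteinase genes on chromosome 11, with no other protein-coding gene between them in RefSeq. In order these are MMP7, MMP20, MMP27, MMP8, MMP10, MMP1, MMP3, MMP12 and MMP13. Of the 9, only MMP7 and MMP1 passed the filter. MMP7, matrilysin, which lacks the haemopexin-like domain of most relatives, read 126.2, 180.3 and 209.8 with H2, H3 and H4, against 321.8 on the scrambled array. It was at 39.2%, 56.0% and 65.2% of that level, at least 1.5-fold lower with every hairpin, and averaged -0.93 ± 0.38 on the log2 scale (SD, n = 3; adjusted p = 0.9998 in limma, unadjusted 0.0209). Whether its neighbours differ from it was not tested. MMP1 was above the scrambled array with H2 and below it otherwise, and the other 7 lay under the filter, at 90.6% to 118.9% of the scrambled level.

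**Figure D4:**
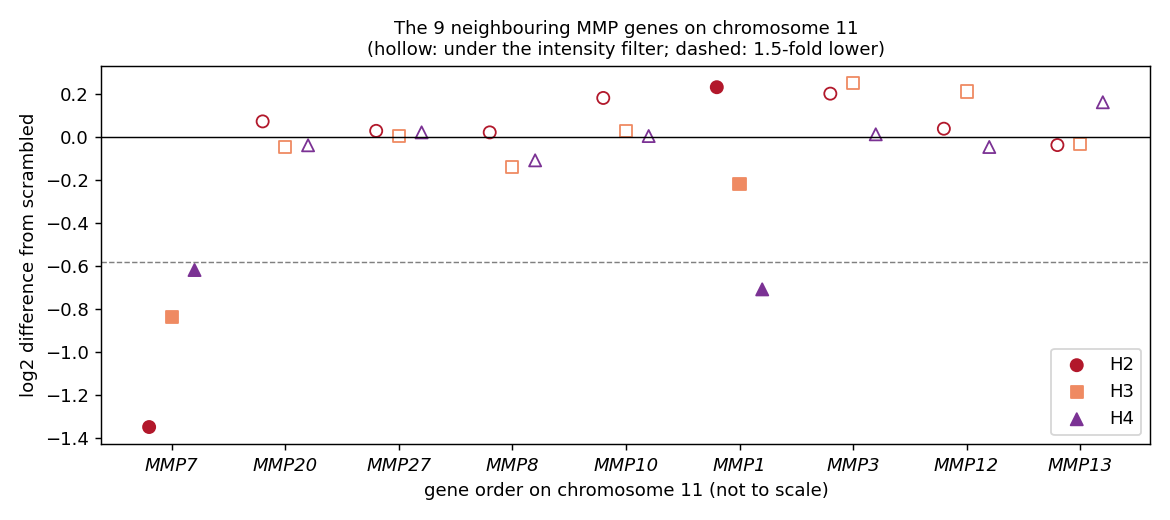
Log2 difference from the scrambled array for the 9 neighbouring metalloproteinase genes on chromosome 11, in gene order and not to scale, with 1 symbol per hairpin and hollow symbols for genes under the filter. MMP7 lies at -0.62 or lower with all hairpins, MMP1 spans 0.23 to -0.71, and the 7 hollow genes stay within 0.25 of 0.

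Of 17 other metalloproteinases, 16 were measured and 8 kept (median of mean log2 differences 0.0082, and -0.023 without H2). Of the 8, 2 were lower and 1 higher with every hairpin, beside 30.6% and 16.9% of all genes. Besides MMP7 these were MMP19, at 71.5%, 88.7% and 82.8% with H2, H3 and H4, and MMP16, a membrane-type enzyme, at 150.4%, 120.7% and 111.9%. A second probe set of MMP16 gave 157.4%, 157.3% and 128.5%. MMP15 was at 121.3%, 101.5% and 99.4%. Of 4 other inhibitors 3 were kept (median 0.14, and 0.13 without H2). Of the 3, 1 was lower and 0 higher with every hairpin, beside the same 30.6% and 16.9%. RECK, a membrane-anchored inhibitor of MMP14, MMP2 and MMP9, read 476.9, 523.3 and 683.7, against 868.9. RECK was below the scrambled array on all 3, at 54.9%, 60.2% and 78.7% (mean log2 difference -0.65 ± 0.27, SD, n = 3; unadjusted p = 0.037 and adjusted p = 0.9998 in limma). TIMP4 was at 97.4%, 143.2% and 113.4%, TFPI2 at 113.1%, 127.6% and 93.4%, and A2M lay under the filter.

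In the plasminogen activator system around PLAU, 8 of 10 genes were measured and 7 kept (median -0.016, and -0.052 without H2). Of the 7, 2 were lower and 1 higher with every hairpin. These counts are near the 30.6% and 16.9% of all genes. PLAT, the tissue-type activator, read 2768, 4315 and 2543, against 4803, or 57.6%, 89.8% and 52.9% of the scrambled level. Both activators were thus below the scrambled array with every hairpin, PLAT least so with H3. PLAUR, the receptor that holds urokinase at the cell surface, was at 90.6%, 100.1% and 89.5%. SERPINE2, an inhibitor of both activators, was at 96.6%, 105.6% and 121.9%, and S100A10, a plasminogen-binding protein, read 12865, 13321 and 14477, against 12861.

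Of 11 genes for activation and cell-surface partners, 10 were kept, with 4 lower and 2 higher with every hairpin, beside 30.6% and 16.9% of all genes (median -0.12, and -0.048 without H2). FURIN, the convertase that cuts the MMP14 precursor, read 718.1, 883.1 and 945.2, against 574.4, and so was above the scrambled array on all 3, at 125.0%, 153.8% and 164.6%. With H2, ITGB3, the integrin beta subunit that pairs with ITGAV, was at 24.6%, LRP1, an endocytic receptor that clears protease and inhibitor complexes, at 49.7%, and CD63, a TIMP1-binding tetraspanin, at 65.3%. With H3 and H4 these were at 85.4% and 93.8% (ITGB3), 85.9% and 79.3% (LRP1), and 84.6% and 105.1% (CD63).

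Of 27 ADAM and ADAMTS proteases, some of which TIMP3 also inhibits, 20 were kept (median -0.13, and -0.095 without H2). Of the 20, 8 were lower and 1 higher with every hairpin, beside 30.6% and 16.9% of all genes. ADAM15 was at 63.2%, 80.0% and 63.9%, ADAMTS9 at 69.8%, 60.9% and 79.5%, and ADAMTS12 at 60.8%, 86.8% and 69.8%. ADAM19 differed mainly with H2, at 43.0%, against 100.3% with H3 and 84.0% with H4. Among 17 matrix proteins that these enzymes cut, 16 were kept, 9 lower and 1 higher with every hairpin, beside 30.6% and 16.9% of all genes. Hairpin H2 gave the list a median of -0.53, H3 -0.059 and H4 -0.083. The median of the mean differences was -0.25, or -0.098 without H2. At least 1.5-fold lower with H2 were 7 of the 16, beside 5.61% of all genes, and 0 of the 16 were so with H3 or H4. BGN was at 31.2% with H2 and at 92.8% and 96.3% with H3 and H4, COL4A1 at 54.1%, 92.6% and 80.1%, and VCAN at 68.4%, 75.4% and 85.8%. COL3A1, a fibrillar collagen cut by MMP1, was at 132.2%, 102.1% and 183.2%.

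Genes of the signals and factors that regulate metalloproteinases and PLAU were described by list as well. The list of inducing ligands and receptors also holds IL1RN, the interleukin 1 receptor antagonist, which lay under the filter. Of 21 ligands and receptors, 19 were kept, 9 lower and 0 higher with every hairpin, beside 30.6% and 16.9% of all genes. Hairpin H2 gave these genes a median of -0.91, H3 -0.057 and H4 -0.25. The median of the mean differences was -0.35, or -0.13 without H2. With H3 and H4 alone 9 were lower and 2 higher with both, beside 40.1% and 23.5% of all genes. The interleukin 1 ligands IL1B (23.6%, 25.3% and 31.2% of the scrambled level) and IL1A (53.1%, 51.9% and 38.4%) were at least 1.5-fold lower with every hairpin. TNF was at 39.2%, 82.4% and 49.0%, and TGFB2 at 48.4%, 72.8% and 55.4%. Of 16 AP-1, ETS and NF-kB factors, all 16 were kept, 4 lower and 2 higher with every hairpin, beside 30.6% and 16.9% of all genes (median -0.10, and -0.014 without H2). ETS2 was at 67.3%, 64.1% and 72.6% (mean log2 difference -0.56 ± 0.091, SD, n = 3; unadjusted p = 0.00983 and adjusted p = 0.9998 in limma). NFKB1 was at 83.0%, 88.7% and 73.7%, ETS1 at 84.7%, 89.6% and 78.5%, and FOSB, an AP-1 subunit, at 122.0%, 113.9% and 138.4%. In all of these lists 0 genes passed the test over all genes.

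**Figure D5:**
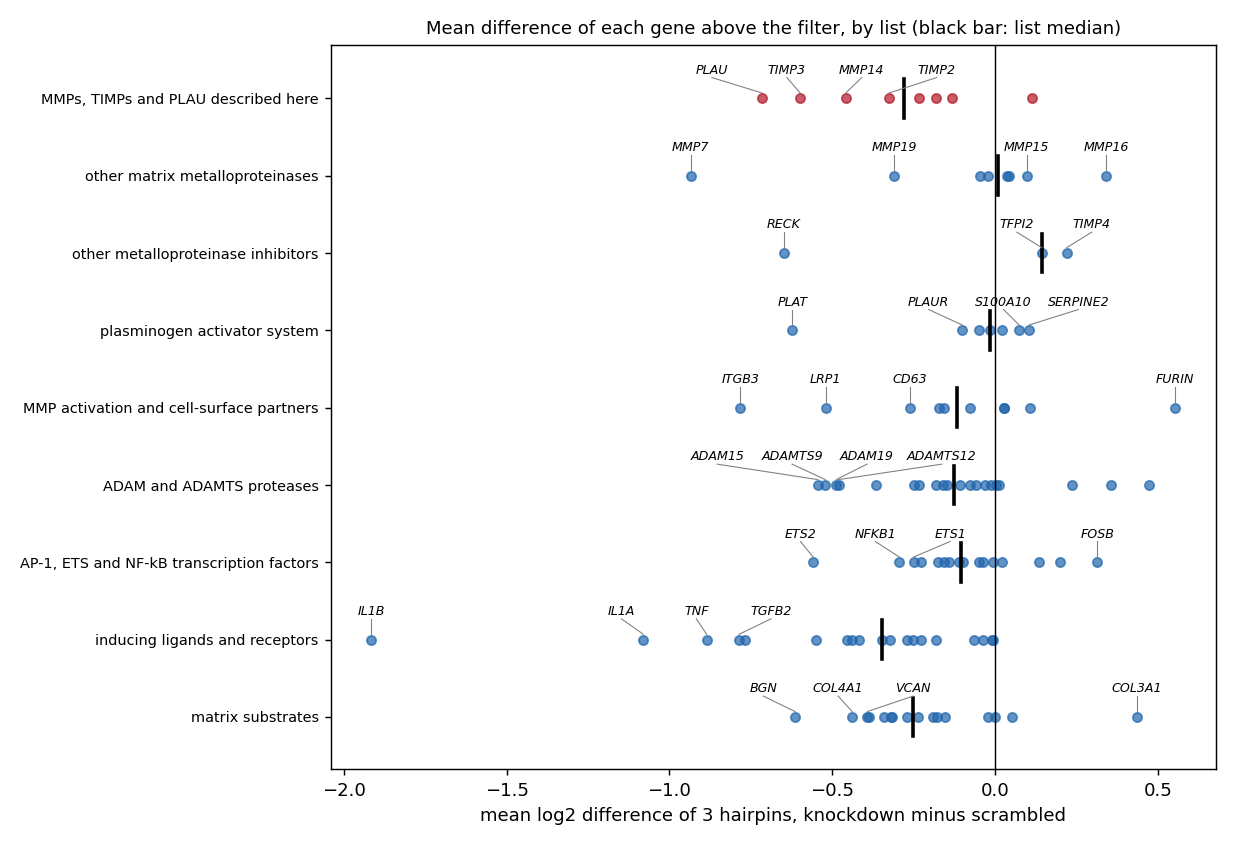
Mean log2 difference of the 3 hairpins for each gene above the filter, 1 point per gene, by list, with a black bar at each list's median and the genes with the largest differences named. The 8 genes described here have a median of -0.28, the inducing ligands and receptors -0.35, and the other metalloproteinases 0.0082, with MMP7 at -0.93 set apart from the rest.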

How the data were processed

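The authors summarised and normalized the whole-transcript arrays (RMA is named in the submitters' processing notes) and deposited 1 intensity per probe set and array on a linear scale. Its version and settings were not stated there. The table holds 33297 probe sets with median intensities of 226.0 to 232.3. Of these, 19460 have exactly 1 gene symbol in the platform annotation, 1754 have several and 12083 are unlisted. Log2 was taken, the probe set with the highest mean was used for each gene, and genes under the 25th percentile were left out. No background, scan or batch information was used, and the number of arrays limits precision. No detection call was used.

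ZFX knockdown was set against scrambled with limma 3.58.1 (lmFit, eBayes with an intensity trend; R 4.3.3, 2 residual degrees of freedom) and Benjamini-Hochberg adjustment over all genes at 0.05. Single hairpins have 1 array a side and no test. Fold differences are knockdown over scrambled, and an SD over hairpins does not hold the scrambled array's own error. Nothing states that the cultures were separate, so the spread may be technical. The genes and lists were chosen with earlier results of these data known. Named are the 10 genes, ZFX, the chromosome 11 cluster and the 5 genes nearest to PLAU. Each list other than the markers gives up to 4 genes with the largest absolute mean difference and any at least 1.5-fold away with every hairpin. For cell type markers the sums are printed, with the genes at least 1.5-fold away with every hairpin and some other members. Alternatives were other scalings, filters, probe set rules, a fit without the trend, and leaving out each hairpin. The lists without H2 were added after seeing the data.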

Additional observations from a re-analysis of the deposited data

How the results depend on the processing

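Of the 10 genes, MMP1 was the only one whose mean log2 difference changed sign in any alternative run, to 0.0051 without H4 (-0.46 without H2). For these genes the lowest adjusted p over the alternatives was 0.9989 (limma), and in each alternative 0 genes passed over all genes. At least 1.5-fold lower with every remaining hairpin were 0 to 1 of the 8, the 1 being PLAU without H2. With H4 alone, 1 gene (PLAU) and not 2 was at least 1.5-fold lower when only the brighter genes (50th percentile filter) were kept, where MMP1 was no longer kept. The count above the scrambled array with every hairpin was 0 after a further quantile or a cyclic loess normalization, and 3 without the filter, which adds MMP3 and MMP10. The other 78 recomputed counts stayed at 0 or within 1.5 times of the values reported. Many of them were 0 both times, which a ratio cannot grade. Leaving out each hairpin gave PLAU -0.57 to -0.82, TIMP3 -0.31 to -0.85 and MMP14 -0.20 to -0.59. No paired analysis was possible, because there is 1 scrambled array and no label pairs it with a knockdown array. With 1 scrambled array, its own error enters every difference and could not be measured, and no measure of signal over background was used.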
